A study of Mus musculus with 9 samples.

Results

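Transcripts of the Notch pathway were measured in enamel organs of 5 male pups raised under early life adversity (ELA) and 4 male control pups, with the members chosen as the genes of 3 receptors (Notch1, Notch2 and Notch3), 4 ligands (Jag1, Jag2, Dll1 and Dll4), a modifier of the receptors (Lfng) and 2 target genes (Hes1 and Hey1). These are 10 of the 54532 genes in the table, and each symbol belonged to a single gene. All pups were offspring of Crh-IRES-Cre +/+ dams and Ai14 tdTomato sires on the C57BL/6 strain, so both groups carried Cre under control of the corticotropin-releasing hormone gene and a Cre-dependent red fluorescent reporter. ELA pups were kept with limited bedding and nesting material from postnatal day 2 to postnatal day 12, control pups had standard cages, and first molar enamel organs of both groups were taken at postnatal day 12. After its enamel measurements the study excluded its lowest-weight ELA mice. The sequenced ELA pups had a lower mean body weight than the sequenced controls, which the study calls weight-matched. Polyadenylated RNA was sequenced with 1 library per mouse. The design asks whether transcript levels in this tissue differ between ELA and control mice.

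In Notch signalling, a ligand of the Jagged or Delta-like family on 1 cell binds a Notch receptor on its neighbour. The receptor is then cleaved, and its inner part moves to the nucleus, where it joins the DNA-binding protein RBPJ and switches on target genes such as those of the Hes and Hey repressors. Fringe enzymes, Lfng among them, add sugars to the receptor and change which ligands it answers to. The enamel organ is the epithelium that makes enamel. Its stratum intermedium is the cell layer that lies against the ameloblasts, and in the mouse tooth it is known for Notch1 transcripts, while Jag2 is known from the neighbouring ameloblast lineage. Dll4 and Notch4 are known from endothelium, and Notch3 from the mural cells around vessels, which the enamel organ samples could also hold.

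All 10 transcripts were detected in every library, and none passed the test between ELA and control enamel organs. In edgeR's quasi-likelihood test, 0 of the 10 members were called at an adjusted p below 0.05, and 0 at an unadjusted p below 0.05. DESeq2 and limma-voom also called 0 of the 10, with adjusted p of 0.910 to 1.0 in DESeq2 and 0.829 to 0.999 in limma-voom. Over all 15909 genes tested in edgeR, 0.0377% were called higher and 0.0251% lower in ELA, and at the unadjusted p 3.56% were higher and 2.89% lower. DESeq2 called 0.411% of 19218 genes higher and 0.307% lower. The CPM of ELA and control mice (counts per 1000000 counts of the TMM-scaled library total) overlapped for all 10 members, whereas all ELA mice lay above all control mice for 1.39% and below them for 1.29% of the genes tested. A count of 0 of 10 is near these shares. The log2 fold changes, ELA over control, were positive for 4 members and negative for 6, ran from -0.36 for Lfng to 0.41 for Notch2, and had a median of -0.06, beside 0.01 for all genes tested. Their median size without sign was 0.09, beside 0.15 for all genes tested. The 95% intervals of the 10 folds lay between 0.580 and 1.90.

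Values per mouse are given in the order t-205-1-1, t-205-1-3, t-203-1-3, t-203-1-4 and t-203-1-5 for ELA and c-204-1-1, c-204-1-2, c-202-1-1 and c-202-1-2 for control mice, named by their titles. What the number after t or c stands for is not stated in the sources used here. Each such number belongs to a single group, so what they stand for cannot be told apart from the condition. For its qPCR, the study drew the mice of each group from 2 litters, and no litters are stated for the sequenced mice, so mice of a group may share a litter. Mice were counted as independent replicates, and the tests measure the spread between these mice. In whole enamel organs, fewer cells of a type and less RNA per cell cannot be told apart.

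**Figure D1:**
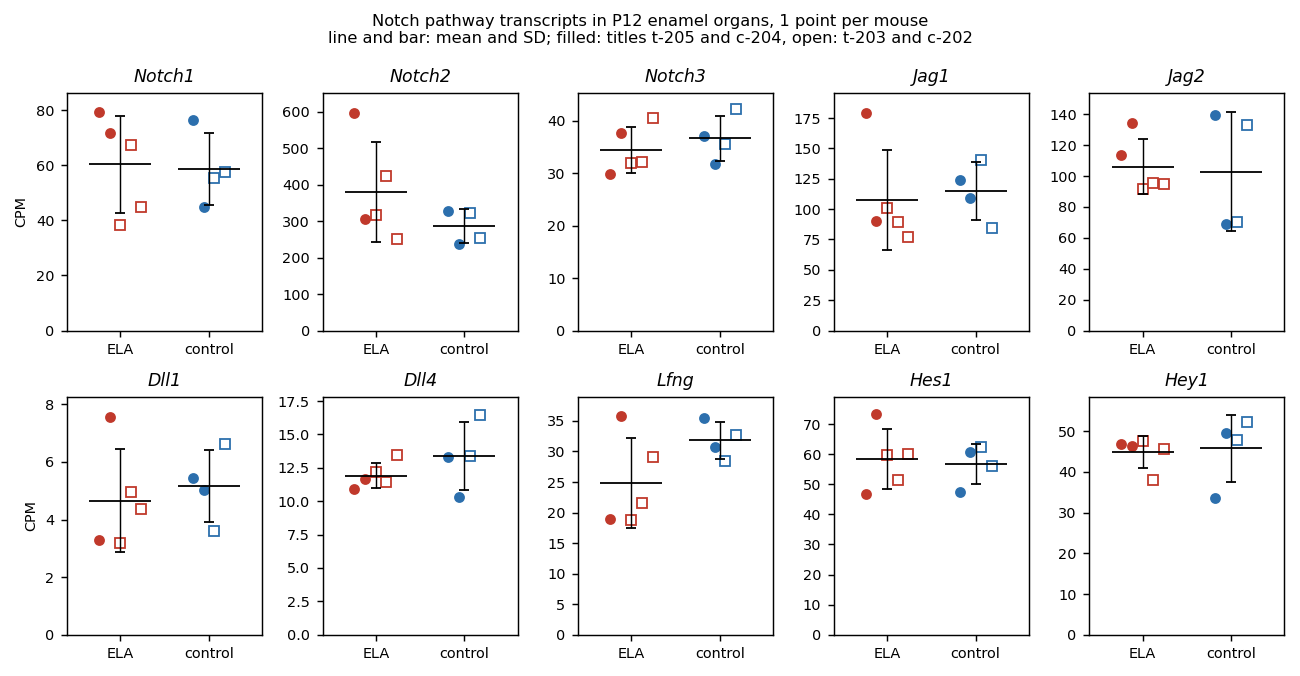
CPM (vertical axes, starting at 0) of the 10 Notch pathway members in 5 ELA (red) and 4 control mice (blue), with 1 point per mouse, a line at each group mean and a bar of 1 SD to each side, filled for titles t-205 and c-204 and open for t-203 and c-202. The groups overlap in all 10 panels, and ELA mouse t-205-1-1 stands highest for Notch2 (597 CPM) and Jag1 (179 CPM).

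Among the receptors, Notch2 had the highest CPM and the largest difference between the groups, and Notch1 and Notch3 had nearly equal means in ELA and control mice. Notch1 (ENSMUSG00000026923), the receptor known from the stratum intermedium, lies on chromosome 2 from 26457903 to 26516663 (GRCm38, minus strand). Notch1 was at 79.4, 71.7, 38.3, 67.2 and 44.9 CPM in ELA mice, against 76.4, 45.0, 55.5 and 57.7 CPM in control mice. Mice t-203-1-3 and t-203-1-5 were the low ones of ELA, and the other 3 ELA mice were above 3 of the 4 control mice. Notch1 averaged 60.3 ± 17.8 CPM in ELA mice (SD, n = 5), against 58.7 ± 13.1 CPM in controls (SD, n = 4), and its log2 fold change was 0.04 ± 0.23 (SE, adjusted p = 0.999, edgeR). The interval of the fold was 0.731 to 1.45.

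Notch2 (ENSMUSG00000027878), a receptor of the same family, lies on chromosome 3 from 98013527 to 98150361 (plus strand). Notch2 was at 597, 306, 316, 425 and 251.1 CPM in ELA mice, against 328, 237, 323 and 254 CPM in control mice. Mice t-205-1-1 and t-203-1-4 were above all control mice, and the other 3 ELA mice were within the control range. Notch2 averaged 379 ± 137 CPM in ELA mice (SD, n = 5), against 285 ± 46.3 CPM in controls (SD, n = 4), and its log2 fold change was 0.41 ± 0.24 (SE, adjusted p = 0.879, edgeR). The interval of the fold was 0.926 to 1.90, and without t-205-1-1 the log2 fold change was 0.19.

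Notch3 (ENSMUSG00000038146), the receptor of vascular mural cells, lies on chromosome 17 from 32120820 to 32166880 (minus strand). Notch3 was at 29.9, 37.8, 32.0, 32.2 and 40.5 CPM in ELA mice, against 37.1, 31.7, 35.7 and 42.2 CPM in control mice. It had the narrowest fold interval of the 10 members, 0.770 to 1.15, around a log2 value of -0.09 ± 0.13 (SE, adjusted p = 0.999, edgeR). The ELA mean was 34.5 ± 4.45 CPM (SD, n = 5) and the control mean 36.7 ± 4.34 CPM (SD, n = 4).

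The Jagged ligands were the more abundant ones, and each had a wide spread in 1 of the groups. Jag1 (ENSMUSG00000027276), which binds Notch receptors in many epithelia and vessels, lies on chromosome 2 from 137081456 to 137116644 (minus strand). Jag1 was at 179, 90.4, 101, 89.4 and 76.8 CPM in ELA mice, against 124, 109, 141 and 84.4 CPM in control mice. The ELA mouse t-205-1-1 was above every control mouse, and the other 4 ELA mice lay below 3 of the 4 control mice. Jag1 averaged 107 ± 41.0 CPM in ELA mice (SD, n = 5), against 115 ± 23.9 CPM in controls (SD, n = 4), and its log2 fold change was -0.09 ± 0.24 (SE, adjusted p = 0.999, edgeR). Without t-205-1-1 the log2 fold change of Jag1 was -0.35 (adjusted p = 0.661, edgeR), against a fold interval of 0.649 to 1.35 with all mice.

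Jag2 (ENSMUSG00000002799), the ligand known from the ameloblast lineage, lies on chromosome 12 from 112907819 to 112929776 (minus strand). Jag2 was at 114, 134, 91.9, 95.5 and 94.96 CPM in ELA mice, against 139, 68.8, 70.3 and 133 CPM in control mice. The control mice fell into a high and a low pair, each of a c-204 and a c-202 mouse, and 4 of the 5 ELA mice lay between the pairs. Jag2 averaged 106 ± 18.0 CPM in ELA mice (SD, n = 5), against 103 ± 38.5 CPM in controls (SD, n = 4), and its log2 fold change was 0.04 ± 0.23 (SE, adjusted p = 0.999, edgeR). The interval of the fold was 0.728 to 1.46.

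The Delta-like ligands were scarcer. Dll1 (ENSMUSG00000014773), a ligand that acts in many developing tissues, lies on chromosome 17 from 15367354 to 15376872 (minus strand) and had the lowest counts of the members, 60 to 141 per library. Dll1 was at 3.28, 7.56, 3.17, 4.94 and 4.36 CPM in ELA mice, against 5.43, 5.01, 3.60 and 6.62 CPM in control mice. Its highest and its lowest values were both in ELA mice. Dll1 averaged 4.66 ± 1.78 CPM in ELA mice (SD, n = 5), against 5.17 ± 1.24 CPM in controls (SD, n = 4), and its log2 fold change was -0.15 ± 0.29 (SE, adjusted p = 0.999, edgeR). Its fold interval, 0.580 to 1.40, was the widest of the 10 members as a ratio of its ends.

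Dll4 (ENSMUSG00000027314), the ligand of sprouting endothelium, lies on chromosome 2 from 119325784 to 119335962 (plus strand). Dll4 was at 10.9, 11.7, 12.2, 11.4 and 13.4 CPM in ELA mice, against 13.3, 10.3, 13.4 and 16.5 CPM in control mice. All 5 ELA mice lay within the control range, and the lowest and the highest value belonged to control mice c-204-1-2 and c-202-1-2. Dll4 averaged 11.9 ± 0.955 CPM in ELA mice (SD, n = 5), against 13.4 ± 2.53 CPM in controls (SD, n = 4), and its log2 fold change was -0.17 ± 0.16 (SE, adjusted p = 0.985, edgeR). The interval of the fold was 0.701 to 1.13.

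Lfng, the lunatic fringe glycosyltransferase that sets the ligand preference of Notch receptors, had the most negative fold change. Lfng (ENSMUSG00000029570) lies on chromosome 5 from 140607320 to 140615545 (plus strand). It was at 18.9, 35.8, 18.8, 21.6 and 29.1 CPM in ELA mice, against 35.5, 30.7, 28.5 and 32.7 CPM in control mice. Mice t-205-1-1, t-203-1-3 and t-203-1-4 were below every control mouse, t-203-1-5 was inside the control range, and t-205-1-3 was above it. Lfng averaged 24.8 ± 7.44 CPM in ELA mice (SD, n = 5), against 31.8 ± 3.01 CPM in controls (SD, n = 4), and its log2 fold change was -0.36 ± 0.20 (SE, adjusted p = 0.848, edgeR). The interval of the fold was 0.580 to 1.05, and without t-205-1-3 the log2 fold change was -0.52 (adjusted p = 0.472, edgeR).

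The promoters of Lfng and Notch2, the members at both ends of the range of fold changes, are printed to show what lies at their start sites. RefSeq (GRCm38.p6) gave promoter sequences for 8 of the 10 members and none was used for Hes1 and Hey1. Each runs 5′ to 3′ along the gene, from 250 bases before the start site to 50 bases after it. Lfng is at chr5:140607091-140607390 (plus strand) and Notch2 at chr3:98013288-98013587 (plus strand). Capitals mark the core of the RBPJ motif, TGGGAA, or its reverse complement TTCCCA.
Lfng: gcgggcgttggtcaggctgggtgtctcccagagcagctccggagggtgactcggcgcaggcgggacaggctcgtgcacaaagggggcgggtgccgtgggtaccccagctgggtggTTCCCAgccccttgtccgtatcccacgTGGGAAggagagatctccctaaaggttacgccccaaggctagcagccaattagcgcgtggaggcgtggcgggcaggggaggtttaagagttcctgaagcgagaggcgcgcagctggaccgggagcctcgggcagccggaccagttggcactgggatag
Notch2: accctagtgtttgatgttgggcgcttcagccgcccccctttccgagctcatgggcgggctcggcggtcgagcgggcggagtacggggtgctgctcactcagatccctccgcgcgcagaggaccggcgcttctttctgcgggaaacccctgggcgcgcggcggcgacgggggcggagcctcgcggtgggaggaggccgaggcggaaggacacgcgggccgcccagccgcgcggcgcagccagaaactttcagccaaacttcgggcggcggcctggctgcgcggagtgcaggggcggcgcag
The core was found in the promoter of Lfng alone among the 9 promoters of the 8 members (Dll1 has 2 start sites). Its matches begin 135 bases before the start site on the minus strand and 108 bases before it on the plus strand, and they do not overlap. Of all 32851 promoters of 300 bases, 25.6% hold the core on either strand, and a match is a description of the sequence only. The Notch2 promoter had a GC content of 73.0% with 41 CpG dinucleotides and that of Lfng 66.7% with 22, beside medians of 52.7% and 7 over all promoters. The highest GC content of the members was that of Jag2 with 86.0% and 63 CpG dinucleotides.

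Neither of the targets passed the test, and both had fold changes close to 0. Hes1 (ENSMUSG00000022528), a repressor that is switched on directly by Notch in many tissues, lies on chromosome 16 from 30064384 to 30067796 (plus strand). Hes1 was at 46.9, 73.3, 59.7, 51.6 and 60.2 CPM in ELA mice, against 47.6, 60.6, 62.3 and 56.0 CPM in control mice. The highest and the lowest mouse were both ELA, t-205-1-3 and t-205-1-1. Hes1 averaged 58.3 ± 10.04 CPM in ELA mice (SD, n = 5), against 56.6 ± 6.61 CPM in controls (SD, n = 4), and its log2 fold change was 0.04 ± 0.15 (SE, adjusted p = 0.999, edgeR), and the interval of the fold was 0.827 to 1.28.

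Hey1 (ENSMUSG00000040289), a related repressor, lies on chromosome 3 from 8663359 to 8667256 (minus strand). Hey1 was at 46.9, 46.4, 47.5, 38.0 and 45.6 CPM in ELA mice, against 33.6, 49.6, 47.7 and 52.2 CPM in control mice. All ELA mice but t-203-1-4 lay within 45.6 to 47.5 CPM, and control mouse c-204-1-1 was the lowest of all. Hey1 averaged 44.9 ± 3.93 CPM in ELA mice (SD, n = 5), against 45.8 ± 8.30 CPM in controls (SD, n = 4), and its log2 fold change was -0.03 ± 0.14 (SE, adjusted p = 0.999, edgeR), and the interval of the fold was 0.790 to 1.22.

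**Figure D2:**
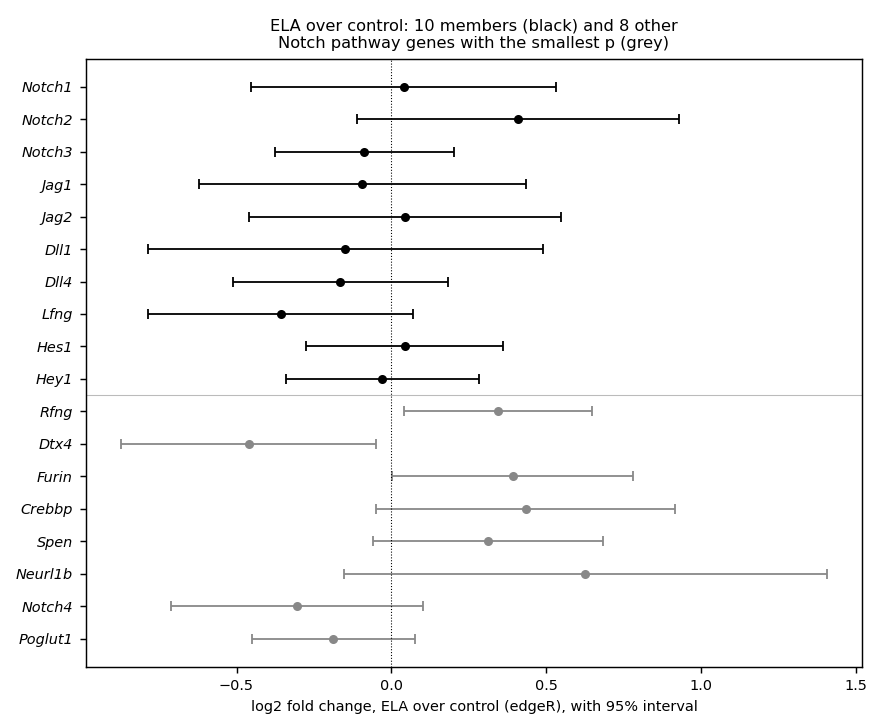
Log2 fold change, ELA over control, from edgeR (horizontal axis) with its 95% interval for the 10 members (black) and the 8 other Notch pathway genes with the smallest p (grey). All 10 intervals of the members include 0, from Lfng at -0.36 to Notch2 at 0.41, and none of the 18 genes passed the adjusted p.

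The spread between mice differed among the members. The coefficient of variation of CPM within ELA was 8.01% for Dll4 and 8.76% for Hey1 but 38.2% for Jag1 and Dll1, and within controls it was 9.45% for Lfng but 37.4% for Jag2. Ratios of members within a mouse, computed from TPM (counts divided by gene length and scaled to a sum of 1000000 in each library), also overlapped between the groups. Jag2 to Jag1 was 0.892 ± 0.270 (SD, n = 5) in ELA and 0.801 ± 0.412 (SD, n = 4) in control mice. Notch1 to Notch2 was 0.125 ± 0.0339 in ELA and 0.156 ± 0.0223 in control mice. Hey1 to Hes1 was 0.489 ± 0.0839 in ELA and 0.503 ± 0.0597 in control mice, and Dll4 to Dll1 was 3.09 ± 0.988 in ELA and 2.94 ± 0.791 in control mice. These ratios are descriptions and were not tested.

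Per gene length, the members fell into 3 tiers, in TPM over all 9 mice. Notch2 had the highest mean, 81.8 TPM (range 56.4 to 134), followed by Hes1 with 74.3 TPM (55.6 to 89.1), Jag1 with 49.5 TPM (33.9 to 74.2), Jag2 with 39.9 TPM (25.3 to 61.5), Hey1 with 36.6 TPM (27.9 to 51.5) and Lfng with 29.6 TPM (17.6 to 42.0). Each of these neighbours overlapped the next in range. Within ELA mice Notch2 was ahead of Hes1 (means of 89.0 and 72.4 TPM), and within control mice Hes1 was ahead of Notch2 (76.7 and 72.9 TPM). The middle tier held Notch3 with 11.7 TPM (8.98 to 16.9), Notch1 with 11.1 TPM (6.33 to 14.5) and Dll4 with 8.68 TPM (6.85 to 13.8), which overlapped each other. Dll1, with 3.09 TPM (1.76 to 5.05), lay below every value of Dll4, and every value of Lfng lay above every value of Notch3. The highest Notch1 level of any mouse, 14.5 TPM, was below the lowest Notch2 level, 56.4 TPM.

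**Figure D3:**
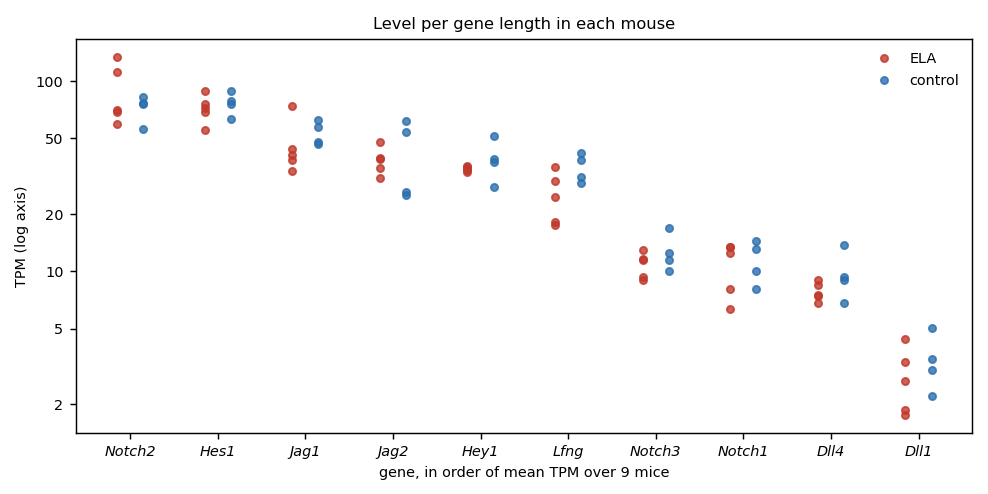
TPM of each member in each mouse (log axis), in order of the mean over 9 mice, with ELA (red) to the left of control (blue). Gaps without overlap separate Lfng (lowest value 17.6 TPM) from Notch3 (highest value 16.9 TPM) and Dll4 (lowest value 6.85 TPM) from Dll1 (highest value 5.05 TPM).

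The order within the tiers also depends on the gene length used. The deposited table gives Notch1 a length of 14232 bases, and its longest coding transcript in GENCODE M21 has 9488 bases. In an alternative chosen after seeing the data, the TPM of each member was multiplied by its deposited length over that of its longest coding transcript. Other genes kept their lengths and the sum was not rescaled. These values, still written as TPM, therefore serve only the order among the members. The mean level of Notch1 in ELA mice was then 16.2 TPM in place of 10.8 TPM, and it stood above Notch3 at 10.9 TPM. Hes1, at 100.4 TPM in ELA mice, then stood above Notch2 at 91.4 TPM, and Jag2, at 52.5 TPM, stood above Jag1 at 48.0 TPM. The range of Notch1 over the 9 mice, 9.49 to 21.8 TPM, then overlapped that of Lfng, 19.1 to 45.7 TPM, so the gap between the upper and the middle tier was lost. Dll1 remained the lowest, with at most 5.95 TPM, below the 7.04 TPM of the lowest Dll4 value.

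The remaining genes of the pathway were read from a list of 49, of which 46 had enough counts for the test. Of the 46, 28 had a positive and 18 a negative log2 fold change, a negative share of 39.1% beside 47.4% of all genes tested, and a median of 0.06 beside 0.01, and 0 were called higher or lower at the adjusted p in edgeR, DESeq2 or limma-voom. At an unadjusted p below 0.05 edgeR had 2 of the 46 higher and 1 lower, near the 3.56% and 2.89% of all genes tested. The groups of mice overlapped for all of the 46, beside 1.39% above and 1.29% below over all genes. The genes with the smallest p belonged to different steps of the pathway.

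Rfng, the radical fringe enzyme and a relative of Lfng, averaged 35.6 ± 2.67 CPM in ELA mice (SD, n = 5), against 28.0 ± 5.15 CPM in controls (SD, n = 4), with a fold change of 0.34 ± 0.14 on the log2 scale (SE, adjusted p = 0.682, edgeR). Of the 5 genes of receptor glycosylation, 3 were positive and 2 negative, and Poglut1, which adds glucose to the receptor, was at -0.19. Furin, the protease that first cuts the receptor on its way to the cell surface, averaged 299 ± 60.4 CPM in ELA mice, against 228 ± 34.0 CPM in controls (log2 fold change 0.39, adjusted p = 0.770, edgeR). Of the 10 genes of receptor cleavage, 7 were positive and 3 negative, with a median of 0.07.

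In the nuclear complex, Rbpj, the DNA-binding partner of the cleaved receptor, averaged 51.6 ± 8.89 CPM in ELA mice, against 56.1 ± 6.05 CPM in controls (log2 fold change -0.12). Crebbp, a histone acetyltransferase, averaged 63.1 ± 20.1 CPM in ELA mice, against 46.7 ± 6.51 CPM in controls (log2 fold change 0.43, adjusted p = 0.830, edgeR). The 4 corepressors were all positive, with a median of 0.10, and Spen among them had 0.31 (adjusted p = 0.849, edgeR). The 3 further targets with enough counts, Hey2, Heyl and Nrarp, were all negative, at -0.17, -0.13 and -0.02, and none of these directions passed the test. Notch4, the remaining receptor and an endothelial one, averaged 18.3 ± 1.97 CPM in ELA mice, against 22.6 ± 6.23 CPM in controls (log2 fold change -0.30, adjusted p = 0.889, edgeR).

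**Figure D4:**
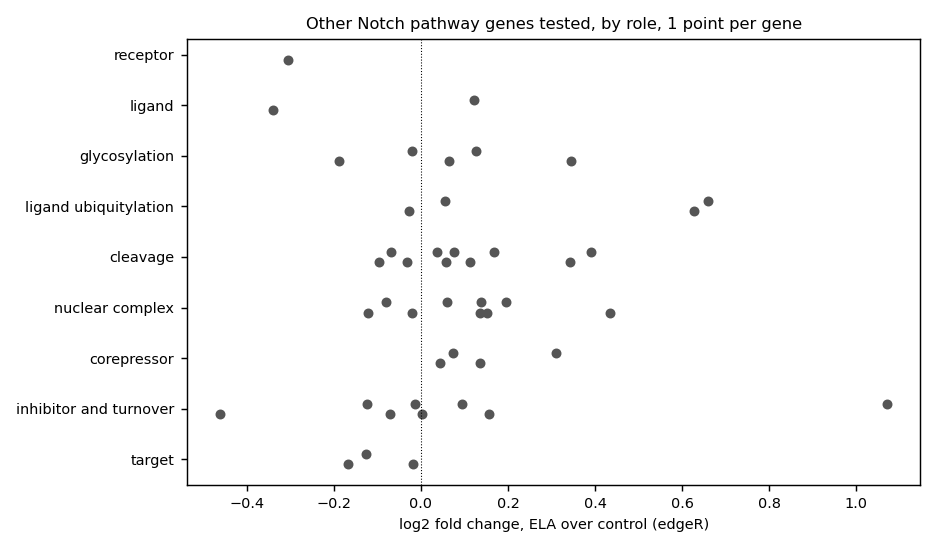
Log2 fold change, ELA over control, from edgeR (horizontal axis) of the 46 other Notch pathway genes with enough counts, in rows by role, with 1 point per gene. Of the points, 28 lie above 0 and 18 below, and the point farthest to the right, at 1.07, is Dtx1.

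Some of these values rest on the library of ELA mouse t-203-1-4. Its summed CPM of 6 neuron markers was 540 CPM, against 57.1 to 99.6 CPM in the other 4 ELA mice and 53.3 to 80.0 CPM in control mice, and none of the 6 markers was at 0 in all libraries. Dtx1, a deltex protein that binds the receptor inside the cell, was at 11.2 CPM in that mouse and at most 1.98 CPM in the other ELA mice, against at most 2.64 CPM in control mice. The log2 fold change of Dtx1 was 1.07 with that mouse and -0.15 without it. Neurl1a and Neurl1b, ubiquitin ligases of the Neuralized family, had 0.66 and 0.63 with the mouse and -0.05 and 0.23 without it. Dtx4, a deltex ubiquitin ligase, was at 14.3, 12.8, 15.2, 23.4 and 13.2 CPM in ELA mice, against 21.7, 23.9, 18.3 and 22.9 CPM in control mice. All ELA mice but t-203-1-4 were below all control mice. The log2 fold change of Dtx4 was -0.46 ± 0.19 (SE, adjusted p = 0.693, edgeR) with all mice and -0.65 ± 0.14 (SE, adjusted p = 0.177, edgeR) without t-203-1-4. For the 10 members, the fit without that mouse gave -0.31 for Lfng and 0.36 for Notch2 as its ends and 0 calls, and Notch1 and Hey1 changed sign, to -0.0027 and 0.02. The part of the neuron markers in these values was not tested.

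Counts of the libraries totalled 18056774 to 32110160 for ELA mice, against 18683431 to 20831736 for control mice, and the 10 members held 0.0666% to 0.102% of them in ELA and 0.0646% to 0.0852% in control mice. The 4 markers listed for the stratum intermedium (Alpl, Thbd, Gja1 and Cldn10) were all detected, with sums of 4446 to 6878 CPM in ELA mice, against 3789 to 5968 CPM in controls. Alpl, an alkaline phosphatase gene known from that layer, spanned 1488 to 1777 CPM in ELA mice, against 1276 to 1429 CPM in controls, which did not overlap (adjusted p = 0.666, edgeR). Of all genes tested, 1.39% had all ELA mice above all control mice. Thbd, which encodes thrombomodulin, Gja1, which encodes connexin 43, and Cldn10 overlapped between the groups. All 4 genes of this list, Alpl among them, are also used by other cells. The summed CPM of 4 secretory ameloblast markers was 71274.5 to 129847 in ELA and 50292.5 to 64506 in control mice, with 4 of 4 log2 fold changes positive. Ambn and Amelx made up nearly all of that sum. The log2 fold change was 1.56 for Amelx (adjusted p = 0.0477, edgeR) and 5.30 for Enam (adjusted p = 0.0570, edgeR), both without overlap of the groups. Both passed in DESeq2 (adjusted p = 3.33e-10 for Amelx and 4.35e-10 for Enam) and in limma-voom (0.0493 and 0.0372). Ambn, at 0.53 (adjusted p = 0.579, edgeR), and Mmp20, at 0.08, had overlapping groups. The 5 maturation ameloblast markers overlapped in sum, at 24403 to 42840 CPM in ELA mice, against 29847 to 41478 CPM in controls, with 3 of 5 positive.

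Markers of mesenchyme are given beside Lfng and Notch2, the members at the ends of the range. All 6 mesenchyme markers had negative log2 fold changes (median -0.54), and none was at 0 in all libraries. Their summed CPM was 10936, 17948, 11369, 12570 and 22611 in ELA mice, against 26204, 23095, 14045 and 29750.3 in control mice. The collagens Col1a1, Col1a2 and Col3a1 made up most of each sum. The 3 mice with the lowest sums, t-205-1-1, t-203-1-3 and t-203-1-4, were the 3 with the lowest Lfng (18.8 to 21.6 CPM). They were also the 3 lowest for Col1a2 and Col3a1, but not for Col1a1, Dcn, Lum or Pdgfra, and Pdgfra had its highest value, 138 CPM, in t-203-1-4. Lfng was highest, at 35.8 CPM, in t-205-1-3 with a sum of 17948. Notch2 was highest (597 CPM) in t-205-1-1, the mouse with the lowest sum, and next highest (425 CPM) in t-203-1-4. In t-203-1-3 Notch2 was at 316 CPM, below control mice c-204-1-1 and c-202-1-1 at 328 and 323 CPM. The lowest Notch2 values, 237 to 254 CPM, were in c-204-1-2, t-203-1-5 and c-202-1-2, with sums of 23095, 22611 and 29750.3. Markers of some other cell types also had negative fold changes. The 3 red blood cell markers had log2 fold changes of -1.11 to -0.87, with summed CPM of 144 to 335 in ELA mice, against 329 to 761 in controls. All 3 osteoclast markers were negative (median -0.61), with sums of 184 to 666 CPM in ELA mice, against 396 to 680 CPM in controls. All 3 leukocyte markers (median -0.50) and both odontoblast markers (median -0.52) were negative too. Lists with both signs included osteoblast (3 of 4 negative), mural cells (5 of 8), endothelium (7 of 10), glia (2 of 3) and epithelium (2 of 6). None of these genes, and none of the mesenchyme markers, passed the adjusted p in edgeR, and none was at 0 in all libraries. DESeq2 called Col3a1 (adjusted p = 0.00224), Lum (0.00777), Ibsp of the osteoblast list (0.0112), Cd79a (0.0259) and Hbb-bs (0.0396), all lower in ELA. The part of these cell types and of the ameloblasts in the values of Lfng and Notch2 was not tested.

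**Figure D5:**
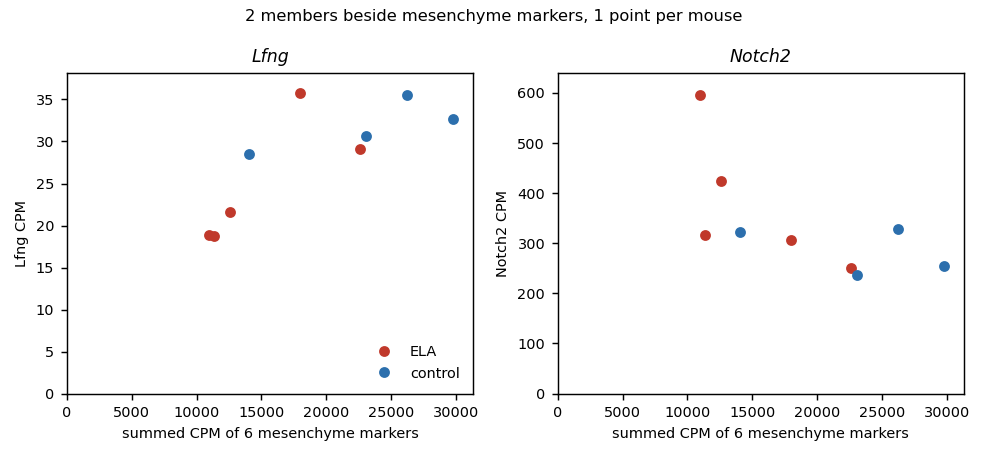
CPM of Lfng and of Notch2 (vertical axes) beside the summed CPM of 6 mesenchyme markers (horizontal axes), with 1 point per mouse, ELA in red and control in blue. The 3 ELA mice with sums of 10936 to 12570 CPM have the 3 lowest Lfng values, and the highest, 35.8 CPM, is in the ELA mouse at 17948 CPM. In the same 3 mice, in order of sum, Notch2 is at 597, 316 and 425 CPM.

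The levels of 3 members were set against markers of the cell type each is known from, over the 9 mice. Log2 CPM of Dll4 and the mean log2 CPM of 10 endothelium markers had a Pearson r of 0.65 (two-sided exact permutation p = 0.0598, adjusted over the 3 relations 0.179) and a Spearman rho of 0.67 (exact permutation p = 0.0589, adjusted 0.177). Without the 2 mice farthest from the median of the marker value, c-202-1-1 and t-203-1-4, r was 0.81. With 1 mouse left out, r ran from 0.56 without c-202-1-2 (exact permutation p = 0.146, adjusted 0.439) to 0.72 without c-202-1-1. On plain library totals in place of TMM scaling, r was 0.85 and passed (exact permutation p = 0.00306, adjusted 0.00918). Notch3 and 8 mural cell markers had an r of -0.37 (exact permutation p = 0.333, adjusted 0.500) and a rho of -0.52 (exact permutation p = 0.162, adjusted 0.243), and r was -0.57 without c-202-1-1 and t-205-1-3. Notch1 and the 4 stratum intermedium markers had an r of -0.20 (exact permutation p = 0.616, adjusted 0.616) and a rho of -0.32 (exact permutation p = 0.410, adjusted 0.410), and r was -0.31 without the same 2 mice. None of the 3 relations passed with TMM scaling. Each marker had equal weight in its list. Among them were Cldn10 of the stratum intermedium list, at 3.25 to 18.1 CPM, and Tagln of the mural cell list, at 0.547 to 1.44 CPM. The permutations exchanged mice freely across groups and title numbers, so a difference between the groups can enter r and its p. The title numbers hold 2 or 3 mice each, too few for a relation within them.

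The 5 genes whose log2 CPM over the 9 mice was most like that of Notch1, out of all genes tested, were Zfp37, Bicd2, Tln1, Ski and Ikzf2. Their Pearson r with Notch1 was 0.980, 0.960, 0.960, 0.959 and 0.959, and their Spearman rho was 0.850, 0.933, 0.950, 0.967 and 0.967. They were picked as the highest of 15909 genes, so these values are a description and carry no test.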

How the data were processed

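First molar enamel organs of 5 ELA and 4 control mice were sequenced. Reads were processed by a company for the authors, whose deposited table gives whole-number counts per Ensembl gene. The submitters' processing notes name CASAVA, HISAT and HISAT2, and the sources used here give no versions, counting program, strand setting or genome build. Reads of overlapping genes on opposite strands therefore cannot be separated. The antisense gene 0610009E02Rik had a mean of 17.7 counts beside 1243 for Notch1, and A930024N18Rik had 7.67 beside 103 for Dll1. Of the genes, 98.3% had the same coordinates in GENCODE M21 (GRCm38), 9 of the 10 members among them, while the end of Notch3 differed. There were 0 columns of sample values left unassigned.

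Groups were taken from the sample labels. ELA was compared with control by edgeR 4.0.16 in R 4.3.3, using filterByExpr (count minimum 10), TMM scaling, robust quasi-likelihood fits and Benjamini-Hochberg adjustment over 15909 genes, with a threshold of 0.05. DESeq2 1.42.0, the tool of the study, limma-voom 3.58.1, other scalings, no filter, each mouse left out, and sums over mice with the same title number were alternatives. Scripts were tested on simulated data. CPM used TMM library sizes, log2 CPM a prior count of 2, and TPM the deposited gene lengths. Intervals of folds are 95% intervals from the quasi-likelihood test. At these depths every member had at least 60 counts per library.

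Members and lists were chosen with earlier results of these data known. All 10 members are named. Of 49 other pathway genes, those past the adjusted p, the 8 with the smallest p and genes completing a small role group were named. Dtx1, Neurl1a and Rbpj were named after their values were seen. The 5 genes most like Notch1 were taken by Pearson r.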

Additional observations from a re-analysis of the deposited data

Results flagged for a closer look

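Of 64 sets of 5 ELA or 4 control values checked for a mouse far from the rest of its group, 4 stood out by Dixon's test, where chance gives about 1 in 20. The ELA mouse t-205-1-1 was highest for Jag1 at 179.1 CPM, with the next ELA mouse at 101.2 CPM and the lowest at 76.8 CPM. The ELA mouse t-203-1-4 was lowest for Hey1 at 37.96 CPM, with the next at 45.6 CPM and the highest at 47.5 CPM. The same mouse was highest for Dtx4 at 23.44 CPM, with the next ELA mouse at 15.2 CPM, and highest in the summed neuron markers at 540.1 CPM, with the next at 99.6 CPM.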

How the results depend on the processing

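Over 16 alternatives, the calls of the 10 members stayed at 0 in both directions, and the 46 tested pathway genes also had 0. Notch2, Notch3, Dll1, Dll4 and Lfng kept the sign of their log2 fold change in all 16. The cause of the changes that follow was not tested. On plain library totals Notch1 was at -0.025, Jag2 at -0.033 and Hes1 at -0.013, and the median of all genes tested was -0.05 in place of 0.01. With each mouse left out, Notch1 ranged from -0.075 to 0.19, Jag1 from -0.35 to 0.020, Jag2 from -0.11 to 0.23, Hes1 from -0.052 to 0.12 and Hey1 from -0.15 to 0.043. Lfng ranged from -0.52 to -0.27, Notch2 from 0.19 to 0.53, Notch3 from -0.15 to -0.012, Dll1 from -0.39 to -0.0048 and Dll4 from -0.27 to -0.047, so that Notch3, Dll1 and Dll4 were nearest to 0 without control mouse c-202-1-2. The relation of Notch1 to the stratum intermedium markers ranged from r of -0.41 to 0.022, positive only without ELA mouse t-203-1-3. The relation of Dll4 to endothelium ranged from r of 0.56 to 0.72 with each mouse left out and did not pass. On plain library totals the relation of Dll4 to endothelium had r of 0.85 and passed its test, and that of Notch3 to mural cells had r of 0.34. Over all genes, edgeR called 6 higher and 4 lower, against 79 and 59 in DESeq2, 22 and 16 without the filter, 16 and 9 without ELA mouse t-205-1-3, 2 and 2 on plain library totals, 3 and 0 with summed title numbers, and at most 1 in each direction without any other mouse. No paired analysis was possible because the labels pair no mice across the groups. Dll1, with 60 to 141 counts per library, had the least depth of the members.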

Other observations

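Of the listed pathway genes, 3 had too few counts for the test. Dll3, a Delta-like ligand, was highest at 0.787 CPM in ELA mouse t-203-1-4, against at most 0.0963 CPM in control mice. Hes5, a target that is prominent in neural progenitors, was highest at 0.306 CPM in the same ELA mouse, against at most 0.0482 CPM in control mice. Hes7, an oscillating target of the embryonic body axis, was at 0.131 to 0.328 CPM in ELA mice, against 0 to 0.144 CPM in control mice.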
